A study of Homo sapiens with 3 samples.

Results

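A set of 10 genes of matrix turnover was followed in the human melanoma line A375, which is an established cell line, across 3 libraries. They were 7 matrix metalloproteinases (MMP1, MMP2, MMP3, MMP9, MMP10, MMP13 and MMP14) and 3 tissue inhibitors of metalloproteinases (TIMP1, TIMP2 and TIMP3). The genes were taken by symbol, and each of the 10 symbols matched 1 of the 58037 genes in the count table. All cells had been washed and kept without serum for 24 h, in serum-free DMEM (control), in medium conditioned by young adipocytes (YA-A375) or in medium conditioned by old adipocytes (OA-A375). The adipocytes had been differentiated in culture from human subcutaneous preadipocytes with insulin, dexamethasone, indomethacin and IBMX and then maintained in adipocyte medium, so the secretomes stand for cultured cells rather than tissue. How many donors contributed to each secretome is not given in the sources used here, and the treatment protocol shared by the samples allows exposures of up to 48 h. In the study's donor list the older donors were all male and mostly from a biobank. The younger donors were mostly female and purchased, so age may not be separable from sex or source here. Each group had 1 library, so no difference below has a replicate check and no p-value was computed.

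Matrix metalloproteinases are zinc-dependent endopeptidases that are made as inactive proenzymes and, once activated, cut collagens, laminins, proteoglycans and many proteins of the cell surface. Collagenases such as MMP1 and MMP13 cut fibrillar collagen, the gelatinases MMP2 and MMP9 cut denatured collagen and basement membrane collagen, the stromelysins MMP3 and MMP10 have broad substrates, and MMP14 is anchored in the plasma membrane. TIMPs block the active site of these enzymes, and TIMP2 also takes part in the activation of pro-MMP2 by MMP14. In melanoma, MMP2 and MMP14 are known for their part in invasion through the matrix.

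The totals ranged from 18089008 counts in OA-A375 to 21448195 in control. Among 12 melanoma and melanocyte markers, CSPG4 had 16208 to 29002 counts per library, PRAME 3262 to 3645, S100B 550 to 843 and MITF 764 to 1221. The lineage factor SOX10 was at 0 in all libraries, and the pigment genes TYR, DCT and TYRP1 had at most 6 counts, so some melanoma markers were well counted and the pigment genes were not. SOX10 overlaps POLR2F on the other strand, sharing 2.40% of its exon bases, and the part of this overlap in its count was not tested. Some markers of other cell types were near 0 and others on the same lists were not. The adipocyte genes ADIPOQ and LEP had at most 1 count, the fibroblast collagens COL1A2 and COL3A1 at most 2, and the leukocyte gene PTPRC at most 1. PPARG (1530 to 1964 counts) and PLIN4 (284 to 579) of the adipocyte list, COL1A1 (75 to 117) and PDGFRB (334 to 568) of the fibroblast list and LYZ (86 to 148) of the leukocyte list were counted in every library. The summed normalised count of 12 fibroblast genes was 961 in control, 1306 in YA-A375 and 1811 in OA-A375, of which 2 genes had 3 counts or fewer in every library, and the sum in OA-A375 rested largely on COL6A3 (145, 302 and 886 counts). Its part in the results below was not tested.

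Expression was concentrated in 5 of the 10 genes. A normalised count is a raw count divided by the library's size factor, and a level is the normalised count per kilobase of merged exon length, which allows genes to be compared. By level the order in control was TIMP3 (9166 per kilobase), TIMP1 (1850), MMP2 (1699), MMP14 (818) and TIMP2 (582). The same order was found in YA-A375, with 4789, 1793, 1017, 730 and 450 per kilobase, and in OA-A375, with 10710, 1995, 1487, 1161 and 665. Counting intervals of neighbours in this order did not overlap, although the lengths rest on annotation and not on the transcripts used in these cells. The other 5 members were at or under 44.2 per kilobase in every library. Among them MMP1 led in control (39.2) and in YA-A375 (7.196), and MMP9 led in OA-A375 (44.2), followed by MMP1 (10.3). The counting intervals of MMP3, MMP10 and MMP13 overlapped those of their neighbours in all libraries, except that of MMP13 with MMP1 in control and that of MMP3 with MMP1 in OA-A375.

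**Figure D1:**
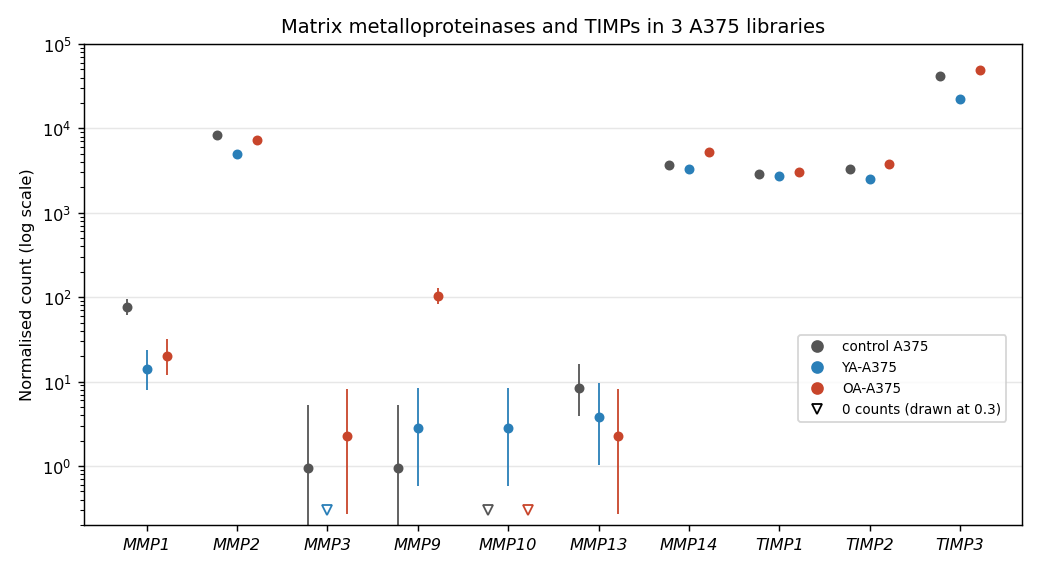
Normalised counts of the 10 genes (log axis) in control, YA-A375 and OA-A375, 1 library each. Bars are 95% exact Poisson intervals, which cover counting error only, and open triangles mark 0 counts. TIMP3, MMP2, MMP14, TIMP1 and TIMP2 lie above 2500 in all libraries, while MMP9 stands at 103 in OA-A375 and below 3 in the others.

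A difference was read as a fold change of normalised counts, with a 95% interval by the Clopper-Pearson method on the counts of both libraries. A cutoff of 1.2-fold was applied to log2 fold changes with a pseudocount of 1, where the normalised count averaged 20 or more over the libraries. These intervals cover counting error only and compare libraries, not conditions. Of the 10 members, 7 passed this filter, and MMP1 and MMP9 did so only through the library in which each was highest. MMP3 and MMP10 had 3 counts or fewer in every library and therefore too few for any fold change, and MMP9 had too few in YA-A375 against control.

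In YA-A375 against control, 4 members were at least 1.2-fold lower (MMP1, MMP2, TIMP2 and TIMP3) and 0 were at least 1.2-fold higher. Across the 14413 genes tested, 16.4% were at least 1.2-fold lower and 17.4% at least 1.2-fold higher. The median log2 fold change was -0.56 over the 6 filtered members with a value and -0.02 over all genes tested. In OA-A375 against control, MMP9 and MMP14 were higher and MMP1 was lower, where 21.1% of all tested genes were higher and 21.5% lower. The median was 0.19 over 7 members and 0.01 over all genes. In OA-A375 against YA-A375, 6 of the 7 were at least 1.2-fold higher and 0 lower, beside 21.5% and 23.0% of all tested genes, and the median was 0.56 for the members and 0.01 for all genes. Of those 6 members, MMP1 had an interval that reached inside 1.2-fold. In bulk samples, fewer cells that express a gene and less of its RNA per cell cannot be told apart. At 2-fold, the members past the limit were MMP1 lower in YA-A375 against control (0.971% of all tested genes were, and 2.15% were higher), MMP1 lower and MMP9 higher in OA-A375 against control (3.71% and 2.86%), and MMP9 and TIMP3 higher in OA-A375 against YA-A375 (3.04%, with 4.43% lower). MMP1 and MMP9 passed the filter only through their highest library, so a high value there was a condition of their being tested. The shares are therefore no measure of their calls that involve that library. Their values also enter the member medians, so the medians of all genes are no measure of these either. The comparisons share libraries, so the same YA-A375 values enter both the lower calls against control and the higher calls of OA-A375.

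**Figure D2:**
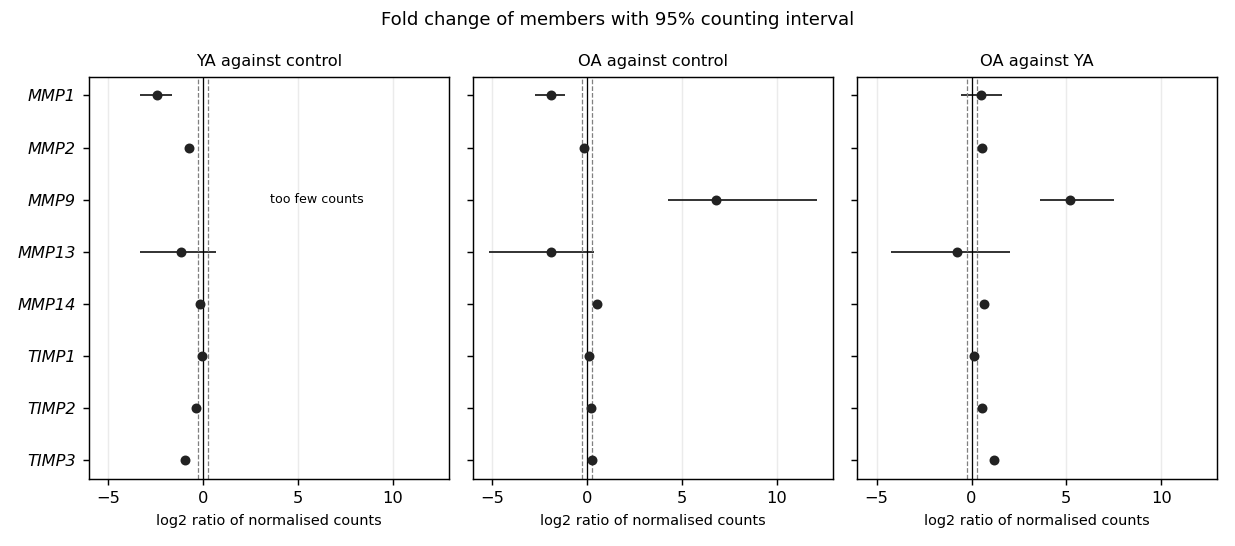
Log2 ratio of normalised counts for the 8 members with a fold change in at least 1 comparison, with 95% Clopper-Pearson counting intervals. Dashed lines mark 1.2-fold, and MMP9 had too few counts in YA-A375 against control. MMP1 lies far left of 0 in both comparisons with control, and MMP9 lies far right in both comparisons of OA-A375.

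TIMP3, an inhibitor that binds to the extracellular matrix and also blocks ADAM17 and several ADAMTS proteases, was the most abundant member. The gene lies on chromosome 22 (GRCh38, 32801701 to 32863043, plus strand), within the span of SYN3 on the other strand, with which it shares no exon bases. Its raw counts were 44773 in control, 23326 in YA-A375 and 43920 in OA-A375, which is 0.209%, 0.109% and 0.243% of all counts. The Wilson intervals of these shares were 0.207 to 0.211%, 0.108 to 0.111% and 0.241 to 0.245%, so YA-A375 stood lowest and OA-A375 highest. The normalised count in YA-A375 was 0.523-fold of control (interval 0.514 to 0.531), and 196 of the 14413 genes had a lower log2 fold change. In OA-A375 it was 1.17-fold of control (1.15 to 1.18), which is inside the 1.2-fold limits, and 2.24-fold of YA-A375 (2.20 to 2.27).

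Promoter sequence is shown for the most abundant inhibitor, the membrane protease and a stromelysin with almost no counts, to set genes at either end of the expression range beside each other. RefSeq promoter windows (GRCh38.p14) of 300 bases, from 250 bases before the start to 50 after it, were matched by symbol for MMP10, MMP14, TIMP1 and TIMP3. Entries for MMP1, MMP2, MMP3, MMP9, MMP13 and TIMP2 were not matched. The printed stretches end before the earliest annotated transcript start and lie at chr22:32801455-32801700 (TIMP3, plus strand), chr14:22836335-22836556 (MMP14, plus strand) and chr11:102780629-102780878 (MMP10, minus strand). They are written 5′ to 3′ in lower case, with GC boxes (GGGCGG or CCGCCC) and TATA boxes (TATAAA or TTTATA) in capitals.
TIMP3: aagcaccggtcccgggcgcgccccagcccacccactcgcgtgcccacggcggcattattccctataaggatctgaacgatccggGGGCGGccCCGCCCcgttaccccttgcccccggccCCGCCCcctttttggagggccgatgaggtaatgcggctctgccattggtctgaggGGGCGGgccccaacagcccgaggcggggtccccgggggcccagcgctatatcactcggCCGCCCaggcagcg
MMP14: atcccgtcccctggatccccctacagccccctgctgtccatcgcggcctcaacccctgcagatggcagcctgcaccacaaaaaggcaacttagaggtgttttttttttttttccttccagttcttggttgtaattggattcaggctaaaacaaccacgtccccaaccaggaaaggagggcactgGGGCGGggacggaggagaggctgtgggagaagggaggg
MMP10: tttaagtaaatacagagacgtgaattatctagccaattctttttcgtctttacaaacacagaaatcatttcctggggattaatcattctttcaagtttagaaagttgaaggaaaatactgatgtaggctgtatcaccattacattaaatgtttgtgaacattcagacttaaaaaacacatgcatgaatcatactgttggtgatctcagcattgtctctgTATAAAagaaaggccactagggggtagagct

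The TIMP3 window held 5 GC boxes between 166 and 18 bases before the start, that of TIMP1 held 2, that of MMP14 held 1 and that of MMP10 held 0, where 45.0% of 35116 promoters held at least 1. A TATA box was found in MMP10 only, 31 bases before its start, and in 11.5% of all promoters. The AP-1 letters TGACTCA or TGAGTCA were in none of the 4 windows and in 4.95% of all promoters. G and C made up 72.7% of the TIMP3 window, 65% of that of TIMP1, 55% of that of MMP14 and 36.3% of that of MMP10, beside a median of 58.7% over all promoters. Both strands were searched, the motifs do not overlap each other, and a match describes letters and not a site in use.

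TIMP1 and TIMP2 are soluble inhibitors. TIMP1 (chromosome X, 47582313 to 47586789, plus strand, within SYN1 on the other strand) had 3026 counts in control, 2924 in YA-A375 and 2739 in OA-A375, or 2851, 2764 and 3075 after normalisation. It was the steadiest of the 5 abundant members, at 0.969-fold of control in YA-A375 (0.921 to 1.02) and 1.08-fold in OA-A375 (1.02 to 1.14). TIMP2 (chromosome 17, 78852977 to 78925387, minus strand) had 3479, 2685 and 3339 counts, or 3278, 2538 and 3748 after normalisation, so YA-A375 was again the lowest library. Its fold change was 0.774 in YA-A375 (0.736 to 0.814) and 1.14 in OA-A375 (1.09 to 1.199) against control, and 1.48 in OA-A375 against YA-A375 (1.403 to 1.55). Other genes share 10.03% of its exon bases, CEP295NL among them with 6 to 13 counts.

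MMP2, the gelatinase that is secreted by many cell types, was the most abundant metalloproteinase among the members. Located on chromosome 16 (55389700 to 55506691, plus strand), it had 8897 counts in control, 5307 in YA-A375 and 6534 in OA-A375. After normalisation these were 8384, 5016 and 7334, so both secretome libraries lay below control and YA-A375 was the lowest. The fold change against control was 0.598 in YA-A375 (0.578 to 0.619) and 0.875 in OA-A375 (0.847 to 0.903), of which only the former was past 1.2-fold. OA-A375 was 1.46-fold of YA-A375 (1.41 to 1.52).

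MMP14, the membrane-type protease that cuts pro-MMP2 at the cell surface, shared its order of libraries with TIMP1, TIMP2 and TIMP3, not with MMP2. The gene (chromosome 14, 22836557 to 22849027, plus strand) had 3874 counts in control, 3448 in YA-A375 and 4616 in OA-A375, or 3650, 3259 and 5181 after normalisation. OA-A375 was the highest library, at 1.42-fold of control (1.36 to 1.48) and 1.59-fold of YA-A375 (1.52 to 1.66), and YA-A375 was at 0.893-fold of control (0.852 to 0.935). The level of MMP14 relative to that of MMP2, both per kilobase, was 0.481 in control, 0.718 in YA-A375 and 0.781 in OA-A375. Relative to MMP14, the level of TIMP2 was 0.712, 0.617 and 0.573 in the same order.

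MMP9, the other gelatinase, was at or under 3 counts in 2 of the 3 libraries. It had 1 count in control, 3 in YA-A375 and 92 in OA-A375, and the gene (chromosome 20, 46008908 to 46016561, plus strand) shares 18.4% of its exon bases with SLC12A5-AS1 on the other strand. The reads of OA-A375 stood apart from both other libraries, at 109.6-fold of control (interval 19.2 to 4375) and 36.4-fold of YA-A375 (12.1 to 179.9). The width of these intervals comes from the 1 to 3 counts in the lower library, and a pseudocount of 5 took the log2 fold change against control from 5.75 to 4.19. Against control, 1 of the 14413 genes had a higher log2 fold change than MMP9, and against YA-A375, 4 had. MMP9 passed the filter only through OA-A375, so these ranks follow in part from the filter. Its level of 44.2 per kilobase in OA-A375 was far under that of MMP2 (1487) in the same library. Neutrophils and macrophages are known to be rich in MMP9. The summed normalised count of the leukocyte markers was 177 in control, 178 in YA-A375 and 134 in OA-A375, most of it from LYZ (148, 143 and 86 raw counts). Of the myeloid genes on that list, FCER1G had 12.2, 10.4 and 15.7 normalised counts, CSF1R 15.1, 20.8 and 14.6, and CD14 6.6, 7.6 and 5.6. The counting intervals of each of these genes overlapped across libraries. AIF1 and TYROBP were at 0 in all libraries, and 6 of the 10 genes had 3 counts or fewer in each. Among these, CD68 shares 85.8% of its exon bases with other genes, so its count is uncertain. The part of such cells in the MMP9 counts was not tested.

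MMP1, the interstitial collagenase, was the furthest below control of the 7 filtered members in both secretome libraries. It had 82 counts in control, 15 in YA-A375 and 18 in OA-A375, or 77.3, 14.2 and 20.2 after normalisation, so control stood above both. Against control the fold change was 0.183 in YA-A375 (0.0982 to 0.321) and 0.261 in OA-A375 (0.148 to 0.439). In YA-A375 5 of the 14413 genes had a lower log2 fold change, and in OA-A375 144 had. MMP1 passed the filter only through control, so these ranks too follow in part from the filter. Between OA-A375 and YA-A375 the ratio of 1.43 had an interval from 0.678 to 3.04, which includes no difference.

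MMP13, a collagenase with high activity on cartilage collagen, had 9 counts in control, 4 in YA-A375 and 2 in OA-A375. Its fold changes of 0.446 (0.1003 to 1.60) in YA-A375 and 0.265 (0.0278 to 1.28) in OA-A375 had intervals that include 1, so no difference was detectable at this depth. The stromelysins were at the limit of detection. MMP3 had 1, 0 and 2 counts and MMP10 had 0, 3 and 0 counts in control, YA-A375 and OA-A375. The floor taken for a count of 0 was 3 counts, which is 0.1399 CPM (counts scaled to the library total) in control, 0.1408 in YA-A375 and 0.1658 in OA-A375.

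**Figure D3:**
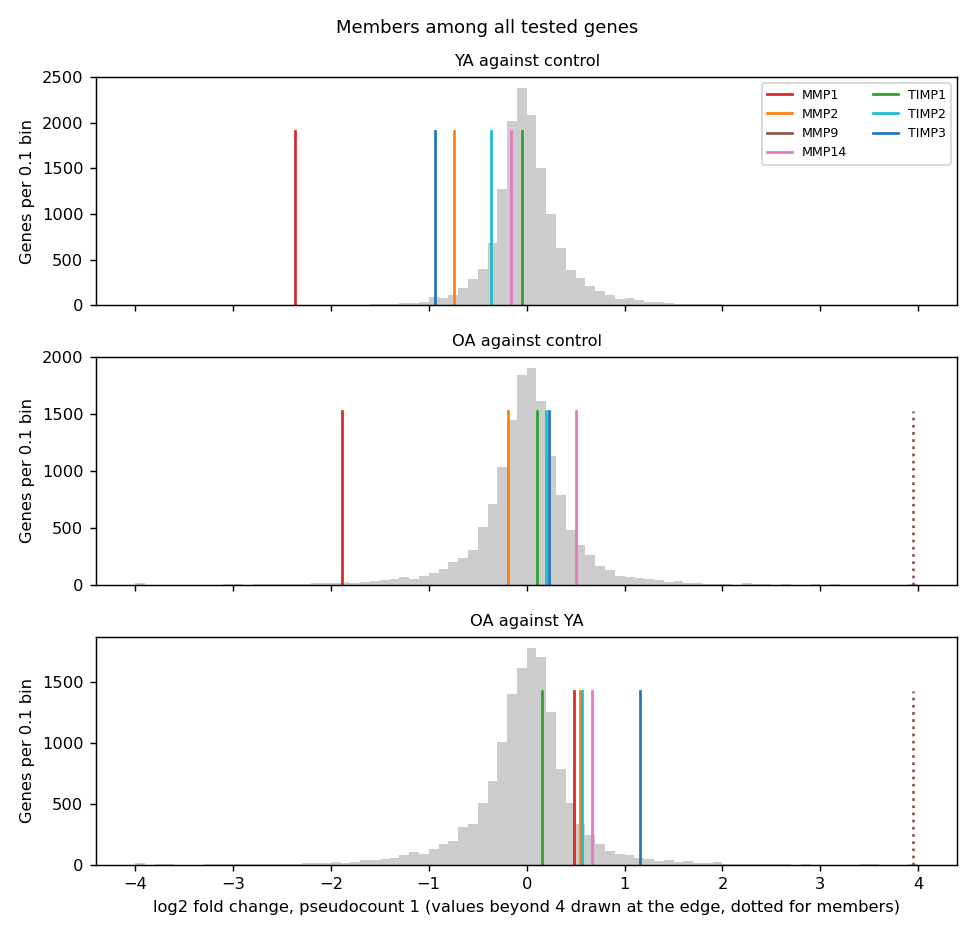
Distribution of log2 fold changes (pseudocount 1) over the 14413 genes tested, in bins of 0.1, with vertical lines at the filtered members that have a value. MMP1 lies at -2.37 and -1.88 against control, TIMP3 at -0.94 in YA-A375, and MMP9 at 5.75 and 4.76, drawn at the right edge.

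Both MMP1 and MMP13 belong to a cluster of 9 MMP genes on chromosome 11 (102520508 to 102955734, a span of 435 kb), with MMP3, MMP10, MMP7, MMP8, MMP12, MMP20 and MMP27. In this cluster MMP1 and MMP8, the neutrophil collagenase, were the genes that passed the filter, and they differed in direction. MMP8 had 23 counts in control, 43 in YA-A375 and 41 in OA-A375, at 1.88-fold (1.11 to 3.26) and 2.12-fold (1.24 to 3.71) of control. MMP7, MMP12 and MMP27 were at 0 in all libraries, and MMP20 had 1 count in control. WTAPP1, which runs through MMP10, MMP1 and part of MMP3 on the other strand and shares 7.61% of the exon bases of MMP1, had 2, 5 and 1 counts.

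Summed over the members, inhibitors outweighed proteases at the RNA level in each library. The 7 MMPs summed to 2560 normalised counts per kilobase in control, 1758 in YA-A375 and 2704 in OA-A375, of which MMP2 and MMP14 made up 98.3%, 99.4% and 97.9%. The 3 TIMPs summed to 11598, 7033 and 13371, and TIMP3 alone was 79.0%, 68.1% and 80.1% of the sum. YA-A375 was thus the lowest library for both sums. The ratio of MMP to TIMP sums was 0.221 in control (counting interval 0.216 to 0.225), 0.250 in YA-A375 (0.244 to 0.256) and 0.202 in OA-A375 (0.198 to 0.206). This order depended on MMP2 and TIMP3, because without them the ratio was 0.354, 0.330 and 0.457, with OA-A375 highest. RNA sums say nothing of proenzyme activation or of protein.

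**Figure D4:**
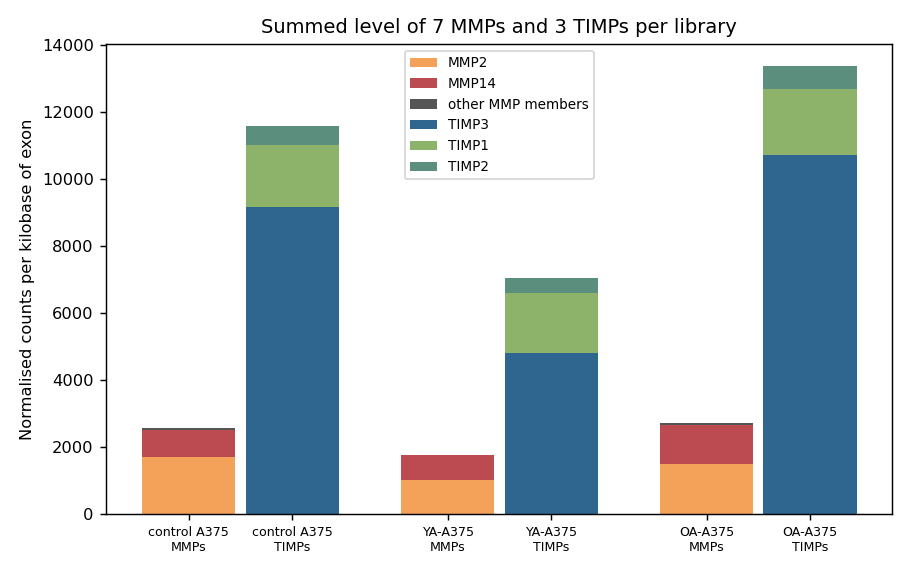
Summed level of the 7 MMPs (left bar of each pair) and the 3 TIMPs (right bar) in each library, in normalised counts per kilobase of merged exon length, divided by gene. TIMP3 fills most of each TIMP bar, and both bars are lowest in YA-A375.

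The other 17 genes of both families were also read. Of these, 7 passed the filter, and 3 were at least 1.2-fold higher and 2 lower in YA-A375 against control, 2 higher and 5 lower in OA-A375 against control, and 1 higher and 3 lower in OA-A375 against YA-A375. Over all tested genes the shares higher and lower were 17.4% and 16.4%, 21.1% and 21.5%, and 21.5% and 23.0% in these comparisons. The calls of MMP11 (lower in both comparisons of OA-A375) and of MMP24 (in all comparisons) had counting intervals that include no difference. MMP24 passed the filter only through YA-A375, so the shares are no measure of its calls that involve that library. MMP16, a membrane-type protease like MMP14, was the most abundant of them, with 4811, 4292 and 5169 counts in control, YA-A375 and OA-A375. It was 0.895-fold of control in YA-A375 (0.859 to 0.933) and 1.28-fold in OA-A375 (1.23 to 1.33). MMP15 and MMP17, also membrane-anchored, were lower than control in both secretome libraries, where MMP15 had 200, 155 and 133 counts and MMP17 had 480, 371 and 309. MMP19 had 163, 288 and 98 counts, at 1.77-fold of control in YA-A375 (1.46 to 2.16) and 0.716-fold in OA-A375 (0.552 to 0.926), though TMEM198B on the other strand, with which it shares 17.4% of its exon bases, had 247, 357 and 151 counts. MMP11 had 41, 39 and 27 counts, and MMP24 had 22, 31 and 14, of whose exon bases 21.8% are shared with antisense genes (MMP24-AS1 had 606, 802 and 621). MMP28, under the filter, had 7, 24 and 8 counts and was 3.44-fold of control in YA-A375 (1.44 to 9.45). TIMP4 had at most 1 count.

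Genes that activate metalloproteinases, hold them at the cell surface or trap them formed a list of 18, of which 17 passed the filter. In YA-A375 against control 2 were at least 1.2-fold higher and 4 lower, in OA-A375 8 were higher and 3 lower, and in OA-A375 against YA-A375 9 were higher and 3 lower. Among all tested genes 17.4% were higher and 16.4% lower in the first of these comparisons, 21.1% and 21.5% in the next, and 21.5% and 23.0% in the last. The higher calls of PLAU in OA-A375 had intervals that include no difference. A2M, a plasma-type inhibitor that traps many proteases, had 1174 counts in control, 246 in YA-A375 and 74 in OA-A375, at 0.210-fold (0.182 to 0.241) and 0.0751-fold (0.0585 to 0.0950) of control. TFPI2, an inhibitor of serine proteases that is deposited in the matrix, had 300, 281 and 1185 counts and was 4.71-fold of control in OA-A375 (4.14 to 5.36). The plasminogen activator PLAT had 3605, 4725 and 6510 counts. PCSK5, a proprotein convertase related to furin, had 53, 60 and 12 counts and was 0.270-fold of control in OA-A375 (0.131 to 0.511). FURIN itself, with 2756, 3175 and 3033 counts, was 1.31-fold of control in OA-A375 (1.24 to 1.38). In YA-A375 the endocytic receptor LRP1 was 1.43-fold (1.37 to 1.49) and the integrin subunit ITGB3 0.735-fold (0.696 to 0.775) of control.

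ADAM and ADAMTS proteases, some of which TIMP3 inhibits, formed a list of 21 with 15 past the filter. In YA-A375 against control 4 were at least 1.2-fold higher and 6 lower, in OA-A375 6 were higher and 5 lower, and in OA-A375 against YA-A375 7 were higher and 3 lower. The shares of all tested genes were 17.4% higher and 16.4% lower, 21.1% and 21.5%, and 21.5% and 23.0%. The calls of ADAM8 against control, and those of ADAMTS15 in YA-A375 against control and in OA-A375 against YA-A375, had intervals that include no difference. ADAM19, a membrane-bound sheddase, had 2650 counts in control, 1733 in YA-A375 and 9008 in OA-A375, at 0.656-fold (0.617 to 0.697) and 4.05-fold (3.88 to 4.23) of control. ADAMTS4, an aggrecanase, had 37, 33 and 84 counts and was 2.70-fold of control in OA-A375 (1.82 to 4.10). ADAMTS7 had 324, 640 and 179 counts and ADAMTS13, which cuts von Willebrand factor, had 53, 112 and 24, so both were highest in YA-A375 and lowest in OA-A375. ADAM12, with 241, 144 and 130 counts, and ADAMTS9, with 283, 167 and 130, were lower after both secretomes.

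Transcription factors that are known to act at MMP promoters, mainly of the AP-1, ETS and NF-kB families, formed a list of 21, all past the filter. In YA-A375 against control 6 were at least 1.2-fold higher and 2 lower, in OA-A375 9 were higher and 6 lower, and in OA-A375 against YA-A375 7 were higher and 6 lower. Of all tested genes, 17.4% were higher and 16.4% lower, 21.1% and 21.5%, and 21.5% and 23.0% in the same comparisons. The AP-1 partners FOSB and ATF3 lay above control in YA-A375 and below it in OA-A375. FOSB had 3695 counts in control, 10053 in YA-A375 and 902 in OA-A375, and ATF3 had 1007, 3207 and 462. FOS, with 4735, 4411 and 1665 counts, was 0.419-fold of control in OA-A375 (0.396 to 0.443), and JUN, with 1554, 1049 and 788 counts, was lower after both. Other AP-1 genes of the list differed in direction. FOSL1 had 9468, 8873 and 18556 normalised counts, FOSL2 1100, 1007 and 1887, and JUNB 1968, 2278 and 2869, all highest in OA-A375. JUND, with 2800, 3222 and 2041, was lowest there. The NF-kB subunits RELB, with 296, 277 and 618 counts, and NFKB2, with 1957, 2412 and 3484, were 2.49-fold (2.16 to 2.87) and 2.12-fold (2.01 to 2.24) of control in OA-A375. The subunits RELA, with 2069, 2133 and 2319 normalised counts, and NFKB1, with 2281, 2262 and 2759, differed less. CEBPB was 1.49-fold of control in YA-A375 (1.37 to 1.62).

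**Figure D5:**
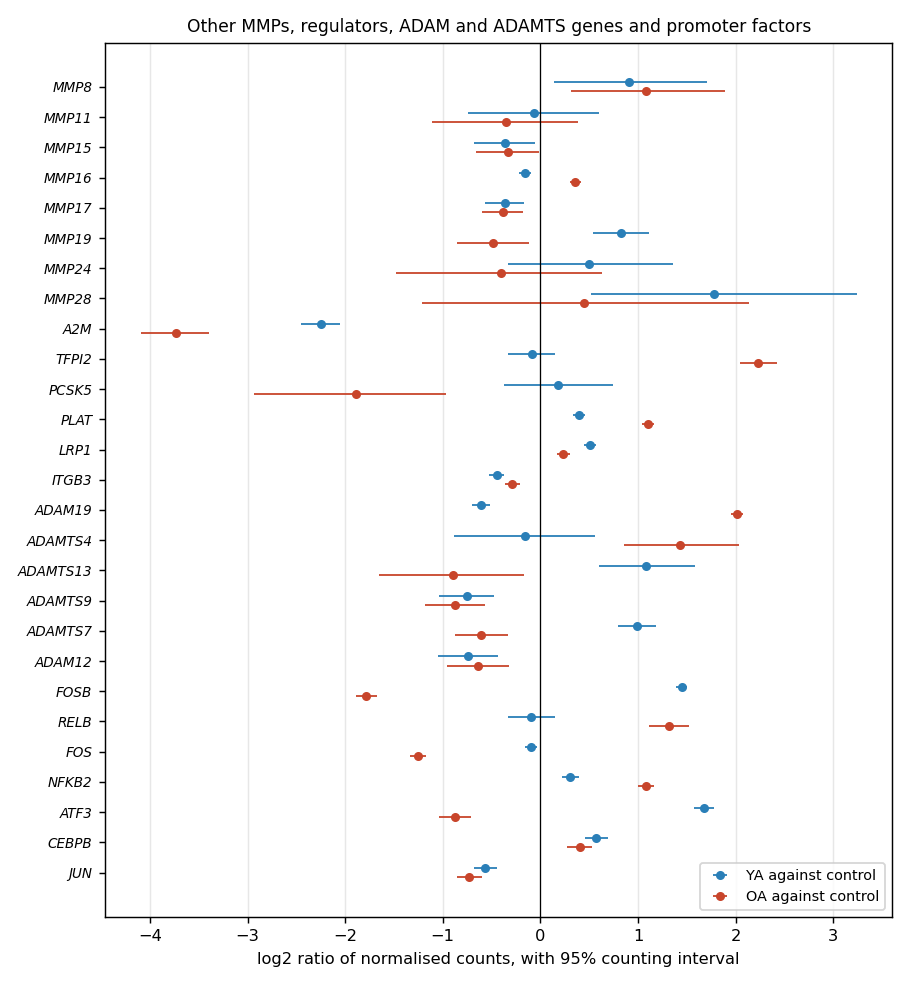
Log2 ratio of normalised counts against control for other MMPs and the genes of largest change in the 3 related lists. YA-A375 is blue and OA-A375 red, with 95% Clopper-Pearson counting intervals. ADAM19, FOSB, ATF3, ADAMTS7, ADAMTS13, MMP16 and MMP19 are among those on opposite sides of 0 in the 2 libraries, and A2M lies far left in both.

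Genes with the pattern most like each filtered member were found by Euclidean distance in the log2 fold changes of YA-A375 and OA-A375 against control, over 3 libraries. For MMP1 the nearest were VIT (0.353) and BMX (0.435), with 0 genes within a distance of 0.1. No such genes are given for MMP9, which had too few counts for a fold change in YA-A375 against control. TIMP3 had 4 genes within 0.1, with CTNND2 (0.041) among them. MMP2 had 24 such genes, with GEMIN8P4 (0.031) and NPL (0.032) nearest, and MMP14 had 72, with RP11-676M6.1 (0.015) and TOMM40L (0.024). TIMP2 had 117, with RP11-144C15.2 (0.011) and SMIM14 (0.012), and TIMP1 had 1098, with NUP107 (0.0027) and RASA2 (0.0028). With 3 libraries a small distance says only that the counts stood in like proportion.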

How the data were processed

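Poly(A) RNA of A375 cells was sequenced in 1 library for each of control, YA and OA. Per the labels and the values, the deposited table holds unnormalised whole-number gene counts, and the submitters' processing notes name STAR 2.5.1b, featureCounts, R 3.6.1 and hg38. The annotation release, strand setting and treatment of reads that match several genes are not given in the sources used here, so counts of genes that overlap others are uncertain.

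Library scaling used the median of ratios from DESeq2 1.42.0 (R 4.3.3), with size factors of 1.06 in control and YA and 0.891 in OA. edgeR's quasi-likelihood test needs replicates and was not run. The 14413 genes whose normalised count averaged 20 or more, with 99.7% of counts, were taken as tested. Fold changes, Clopper-Pearson, Poisson and Wilson intervals came from Python 3.11.15 with scipy 1.17.1, and figures from matplotlib 3.10.9. The interval on the ratio of sums used a normal approximation on the log scale. Reads are not independent molecules, so neither the intervals nor the 3-count floor covers more than counting error. The procedure was tested on simulated Poisson counts, which hold no variation between cultures and so do not test that part.

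Positions and merged exon lengths came from GENCODE release 29 on GRCh38. All 10 members had the same versioned identifier there, and 57433 of 58037 identifiers were found. The members and lists were chosen with earlier results of these data known. All members were named. From the lists of regulators, ADAM and ADAMTS genes and promoter factors, the 4 tested genes with the largest absolute log2 fold change in YA and in OA against control were named. Some further genes of these lists were named beside them, to show calls or relatives that differed. A gene that the likeness rule would name is not reported here. Other MMPs were named if tested or past 2-fold with at least 10 counts. Alternatives were edgeR 4.0.16 TMM and total-count scaling, a pseudocount of 5, no filter or a mean of at least 100, stricter fold thresholds, and other lengths or members for the sums.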

Additional observations from a re-analysis of the deposited data

How the results depend on the processing

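Scaling by TMM or by total counts left the counts of members past 1.2-fold as they were in all 3 comparisons and moved no member's log2 fold change by more than 0.014. A pseudocount of 5 kept those counts too, and of 60 recomputed log2 fold changes of members, 59 stayed within their counting interval, the exception being MMP9 in OA-A375 against control. At 2-fold, the members lower in YA-A375 against control were 1 in place of 4, those higher in OA-A375 against control 1 in place of 2, and those higher in OA-A375 against YA-A375 2 in place of 6. At a log2 fold change of 1.2 these numbers were 1, 1 and 1. With no filter MMP13 was added in each comparison, giving 5 members lower in YA-A375 against control, 2 lower in OA-A375 against control and 1 lower in OA-A375 against YA-A375. A minimum mean of 100, which removes MMP1 and MMP9, left 3 lower in YA-A375 against control, 1 higher and 0 lower in OA-A375 against control, and 4 higher in OA-A375 against YA-A375. A counting interval wholly beyond 1.2-fold removed MMP1 from OA-A375 against YA-A375, leaving 5 members. The ratio of MMP to TIMP sums in control, YA-A375 and OA-A375 was 0.258, 0.278 and 0.234 with the longest transcript as length, and 0.271, 0.328 and 0.251 over all listed MMP and TIMP genes, with YA-A375 highest in both. It was 0.354, 0.330 and 0.457 without MMP2 and TIMP3, where OA-A375 was highest. No paired analysis was possible because each group had 1 library. Depth limits MMP3, MMP10 and MMP13, and with 1 library per group the spread between cultures is unknown.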

Other observations

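The 12 adipocyte markers summed to 2252 normalised counts in control, 3196 in YA-A375 and 2265 in OA-A375, of which LEP and CIDEA were at 0 and 4 had 3 counts or fewer in every library. PPARG carried most of the sum, with 1515, 1856 and 1717 normalised counts, and PLIN4 added 268, 547 and 360. Within the list, LPL, a lipase of the vessel wall, had 353, 583 and 30 raw counts in control, YA-A375 and OA-A375, and CIDEC, a lipid droplet protein, had 6, 31 and 36. Among the fibroblast markers, DCN, a matrix proteoglycan, had 13, 138 and 24 counts, and PDGFRA, a growth factor receptor, had 76, 20 and 51. Their part in the MMP and TIMP values was not tested.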
